A study of Mus musculus with 12 samples.

Results

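The expression of Nnt and of 9 further genes of mitochondrial NADPH supply and use was described in the substantia nigra pars compacta (SNpc) of 2 mouse strains. The 10 genes, Nnt, Idh2, Me2, Me3, Nadk2, Glud1, Mthfd2l, Gsr, Txn2 and Txnrd2, were chosen by name out of 54193 genes in the files, for their place in the pathway and because C57Bl/6j mice are known to carry a partial deletion of Nnt. Tissue was laser-microdissected from male pups 1 week old, and RNA of each mouse was sequenced on its own. The 4 groups, of 3 mice each, were SwissOF1 mice hemizygous for Engrailed 1 (OF1-En1+/-), wild-type SwissOF1 mice (OF1 WT), C57Bl/6j mice hemizygous for Engrailed 1 (C57-En1+/-) and wild-type C57Bl/6j mice (C57 WT). En1 encodes a transcription factor of midbrain dopaminergic neurons, and a LacZ cassette inserted in the gene disrupts the targeted allele, which OF1-En1+/- mice carry and which was brought into C57-En1+/- mice by backcrossing from the OF1 strain. The disrupted allele is present in all cells, so the hemizygous groups are not limited to dopaminergic neurons. The OF1 stock is outbred and the C57Bl/6j strain is inbred. Single mice are called by the codes in their labels. SW21, SW22 and SWB were OF1-En1+/-, SW31, SW7 and SWG were OF1 WT, C5713, C572 and C575 were C57-En1+/-, and C5710, C572S and C5743 were C57 WT.

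NADPH is the electron donor with which mitochondria regenerate glutathione and thioredoxin, and these in turn reduce peroxides. Nicotinamide nucleotide transhydrogenase, the product of Nnt, sits in the inner mitochondrial membrane and uses the proton gradient to transfer hydride from NADH to NADP, while isocitrate dehydrogenase 2 (Idh2), malic enzymes (Me2, Me3), glutamate dehydrogenase (Glud1) and a folate-cycle enzyme (Mthfd2l) can form reduced cofactor in the matrix, and the kinase Nadk2 supplies the NADP itself. Dopaminergic neurons of the SNpc are known for a high oxidative load, to which dopamine metabolism and pacemaking contribute.

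Nnt lies on the minus strand of chromosome 13 in GRCm39, at chr13:119470859-119566380, and 5 of its transcripts were in the index against which reads were assigned. Nnt-202 (3464 bases, 17 exons, coding) has the most exons of the 5, and Nnt-201 (3122 bases, 15 exons, coding) has 15 exons with the same bounds but lacks exons 8 and 9. These 2 exons hold 342 bases, or 114 codons, and make up 9.87% of Nnt-202. They lie at chr13:119511165-119511310 and chr13:119508932-119509127, and their letters are shown because they are the only bases by which a read can be assigned to Nnt-202 over Nnt-201, apart from the exon junctions. Sequences are of the reference genome, GRCm39, and run 5′ to 3′ on the transcript.
Nnt-202 exon 8: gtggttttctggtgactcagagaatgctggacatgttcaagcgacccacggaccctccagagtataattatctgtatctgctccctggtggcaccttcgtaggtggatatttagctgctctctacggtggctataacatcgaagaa
Nnt-202 exon 9: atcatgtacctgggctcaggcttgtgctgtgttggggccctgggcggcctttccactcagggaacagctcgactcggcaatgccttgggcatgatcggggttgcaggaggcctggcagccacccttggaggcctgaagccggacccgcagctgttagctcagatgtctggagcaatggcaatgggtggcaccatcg
The junctions that separate the 2 transcripts are shown with the last 30 bases of the exon before in lower case and the first 30 bases of the exon after in capitals. Exon 7 is joined to exon 8 in Nnt-202 and to exon 10 of Nnt-202 (its own exon 8) in Nnt-201.
Nnt-202 junction of exons 7 and 8: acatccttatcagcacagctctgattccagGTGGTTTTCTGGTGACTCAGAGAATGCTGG
Nnt-202 junction of exons 9 and 10: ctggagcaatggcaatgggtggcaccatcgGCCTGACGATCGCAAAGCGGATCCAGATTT
Nnt-201 junction of exons 7 and 8: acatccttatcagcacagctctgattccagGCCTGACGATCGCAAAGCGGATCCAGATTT
The remaining transcripts were Nnt-203 (3198 bases, coding) and the retained-intron transcripts Nnt-204 (2340 bases) and Nnt-205 (1885 bases), of which Nnt-205 holds 4 exons at the 5′ end of the gene. The index was made from the C57BL/6J reference genome, so exons that this genome lacks had no target, and reads from them could not be counted. Any such reads would be lost from OF1 mice only if all C57 mice here carry the deletion known for C57Bl/6j. The Nnt genotype of these mice was not tested. Exons 8 and 9 as numbered here are present in that genome, so they are not the exons deleted in C57Bl/6j mice, and Nnt-202 lacks those deleted exons as well.

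Libraries held 13538864 to 30927714 estimated reads in OF1 mice and 20030280 to 168741283 in C57 mice, and no 2 libraries of a group were near enough to be a repeat of each other. Normalized counts of En1 did not follow the genotype, with 691 in SW22 (OF1-En1+/-), 1071 in C572S (C57 WT) and 0 to 15.2 in the other 10 libraries. C572, labelled male, had 1330 normalized counts of Xist, against 0 to 34.9 in the other 11 libraries, and 0 of the Y-linked gene Ddx3y, against 749 to 2506 in the others. The summed level of 15 markers of dopaminergic neurons, the defining cells of the SNpc, was 7452 TPM in SW22 (TPM is a level scaled to transcript length and depth), 1827 TPM in C572 and 11820 TPM in C572S, against 42.5 to 154 TPM in the other 9. Of the 15 markers, 0 were at 0 in SW22, 3 in C572, 0 in C572S and 0 to 4 in the other 9. The label SNpc was thus matched by a high summed level in 3 of 12 libraries, of which C572 lacked 3 markers. Results on the 10 genes are given with and without these libraries where they changed them.

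Nnt was the lowest of the 10 genes in both strains, and its total did not differ between OF1 and C57 mice by more than the spread between mice. Its level was 1.51, 3.92 and 0.405 TPM in OF1-En1+/- mice (SW21, SW22, SWB) and 0.526, 0.254 and 1.52 TPM in OF1 WT mice (SW31, SW7, SWG). In C57-En1+/- mice (C5713, C572, C575) it was 0.0689, 1.15 and 1.05 TPM, and in C57 WT mice (C5710, C572S, C5743) it was 0.342, 1.65 and 0.671 TPM. The strains overlapped over nearly their whole range, SW22 stood above all others and C5713 below, and replicates of 1 group differed by up to 16.6-fold. The mean was 1.36 ± 1.37 TPM in OF1 mice and 0.822 ± 0.577 TPM in C57 mice (SD, n = 6 each). In terms of reads, the whole gene rested on 9.005 to 127 estimated reads per library in OF1 mice and 2 to 180 (179.8) in C57 mice, so few reads stood behind each value. The log2 fold change of OF1 over C57 mice, averaged over both genotypes, was 0.88 (SE 0.85, 95% interval -0.97 to 2.72, edgeR quasi-likelihood adjusted p = 0.949), an interval that spans a fold of 0.511 to 6.60. Leaving out the single OF1 WT mouse SWG brought the estimate to 0.00. Totals of OF1 mice leave out any reads from exons that the C57BL/6J reference lacks, so they may be too low, by an amount that was not measured. In bulk tissue, fewer cells of a type and less RNA per cell cannot be told apart, and p-values measure the spread between these mice.

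**Figure D1:**
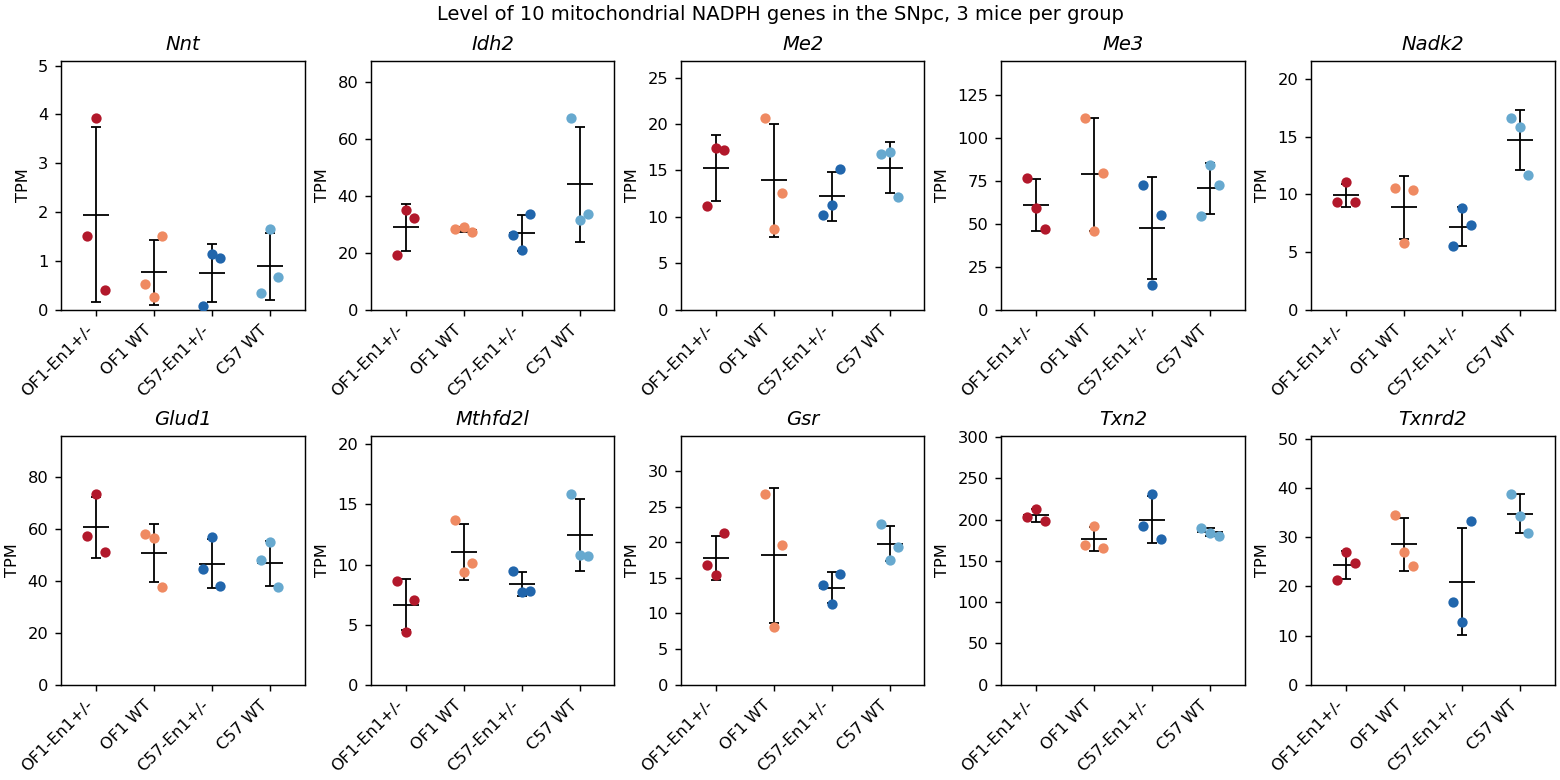
Level of each of the 10 genes in TPM (y axis, a separate linear scale per gene starting at 0) in the 3 mice of each group (x axis). Points are mice, and the black dash and bar are the mean ± SD of the group. Nnt lay between 0.0689 and 3.92 TPM and Txn2 between 166 and 231 TPM, and for none of the genes did the 6 OF1 mice separate from the 6 C57 mice.

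Within genotypes the values of Nnt were as broad. The log2 fold change was 0.34 (95% interval -2.25 to 2.93) in OF1 WT over C57 WT mice and 1.41 (-1.22 to 4.05) in OF1-En1+/- over C57-En1+/- mice. Hemizygosity of En1 gave 1.40 (-1.24 to 4.04) over WT in OF1 mice and 0.33 (-2.26 to 2.91) over WT in C57 mice, and the difference between these effects, C57 minus OF1, was -1.07 (-4.75 to 2.60). None of them passed the threshold of an adjusted p of 0.05, and the values in OF1 WT over C57 WT and in C57-En1+/- over C57 WT changed sign between settings (below 0 on a TPM scale, for example).

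The transcripts to which Nnt reads were assigned were also compared between strains. Nnt-202, with exons 8 and 9, had 52.0, 121 and 26.3 estimated reads in OF1-En1+/- mice (SW21, SW22, SWB) and 0, 0 and 119 in OF1 WT mice (SW31, SW7, SWG). In C57 mice it had 91.2 reads in C572 and 0 in the other 5, among them all 3 C57 WT mice and C5743, the deepest library. Nnt-202 thus had reads in 4 of 6 OF1 mice and in 1 of 6 C57 mice, and that mouse was C572, the library that also stood apart by Xist and Ddx3y. Scaled to library size (RPM), it lay between 0.937 and 8.96 RPM in the 4 OF1 libraries with reads and at 2.82 RPM in C572. A count of 0 allows up to 0.110 and 0.223 RPM in the 2 OF1 libraries without reads, and 0.0179 to 0.151 RPM in the 5 C57 libraries (3 reads each, counting error only). The 5 C57 libraries therefore lay below the lowest OF1 library with reads by more than counting error, and the 2 OF1 libraries without reads did so too. Over all genes, however, libraries of 1 group differed by far more than counting error, with a chi-square per degree of freedom of 29.1 to 460. The bound of 3 reads is therefore too narrow for the spread between mice. The counts of Nnt-202 are also estimates, and most of its bases are shared with Nnt-201. Error in assigning shared reads to 1 transcript or the other comes on top and was not measured, so an estimated 0 does not show absence.

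Nnt-201, without exons 8 and 9, had reads in C57 mice only. There were 22.1 reads in C575, 78.7 in C572S and 83.1 in C5743, against 0 in all 6 OF1 mice. In those OF1 mice a count of 0 allows up to 0.0977 to 0.223 RPM, by counting error only. In the 3 C57 libraries with reads Nnt-201 lay at 0.495 to 1.29 RPM. No library had estimated reads of both Nnt-201 and Nnt-202. The 2 transcripts share 15 exons, and the part of read assignment in this pattern was not tested. The retained-intron transcript Nnt-205 was found in both strains, with 5.96 to 10.5 reads in 4 of 6 OF1 mice and 2 to 96.8 reads in 6 of 6 C57 mice, and it was the only Nnt transcript with reads in SW31, SW7, C5713 and C5710. Nnt-203 had 4.48 reads in SWB alone and Nnt-204 had 6.78 reads in C575 alone.

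**Figure D2:**
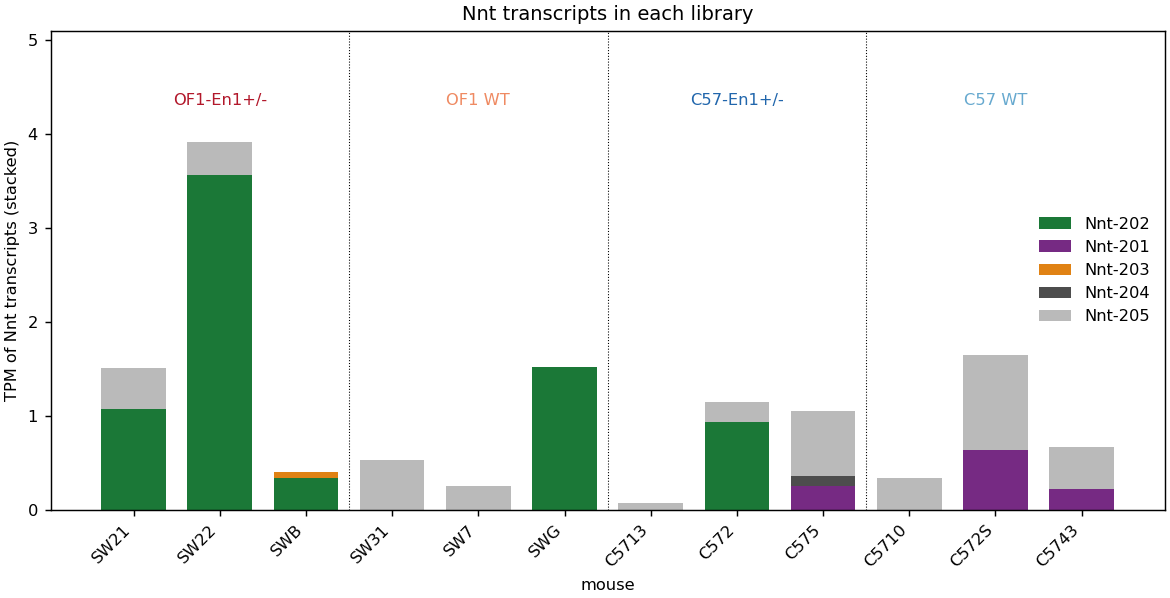
Nnt TPM of each library (y axis, linear, stacked by transcript) for the 12 mice (x axis), ordered by group with OF1 mice on the left. Nnt-202 makes up most of the bar in SW21, SW22, SWB, SWG and C572, and Nnt-201 appears only in C575, C572S and C5743.

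As a share of all Nnt TPM, Nnt-202 was 71.1, 91.0 and 84.3% in OF1-En1+/- mice and 0, 0 and 100% in OF1 WT mice. It was 0, 81.7 and 0% in C57-En1+/- mice and 0% in each C57 WT mouse. The mean was 57.7% ± 45.7 in OF1 mice and 13.6% ± 33.3 in C57 mice (SD, n = 6 each), and the difference did not pass an exact two-sided permutation test over the 12 mice (p = 0.106). Without C572 the means were 57.7% in 6 OF1 mice and 0% in 5 C57 mice (exact permutation p = 0.0909). Without SW22, C572S and C572, the 3 libraries with high dopaminergic markers, they were 51.1% in 5 OF1 mice and 0% in 4 C57 mice (exact permutation p = 0.238). In the fit across 40883 transcripts, of which 0.925% passed the threshold, Nnt-202 did not pass it between strains (edgeR quasi-likelihood adjusted p = 0.557), nor did it in the test of its use relative to the gene's other transcripts (diffSpliceDGE of edgeR, adjusted p = 0.629). Its fitted fold change is not given, since C57 WT mice were all at 0. Nnt-201 had too few reads to be tested.

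Nnt was also set beside the level of dopaminergic transcripts. SW22, with 7452 TPM of the 15 markers, had the highest Nnt level (3.92 TPM), and C572S, with 11820 TPM, had the highest of the C57 mice (1.65 TPM). C572, with 1827 TPM of the markers, had 1.15 TPM of Nnt. SWG and SW21, with only 70.7 and 70.1 TPM of the markers, had 1.52 and 1.51 TPM of Nnt. Without SW22, C572S and C572 the mean of Nnt was 0.843 ± 0.621 TPM in 5 OF1 mice and 0.533 ± 0.423 TPM in 4 C57 mice (SD). All 15 markers were detected in the series, but Pitx3 was at 0 in all OF1 WT mice and Foxa2 in all C57-En1+/- mice. The part of these markers in the level of Nnt was not tested.

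**Figure D3:**
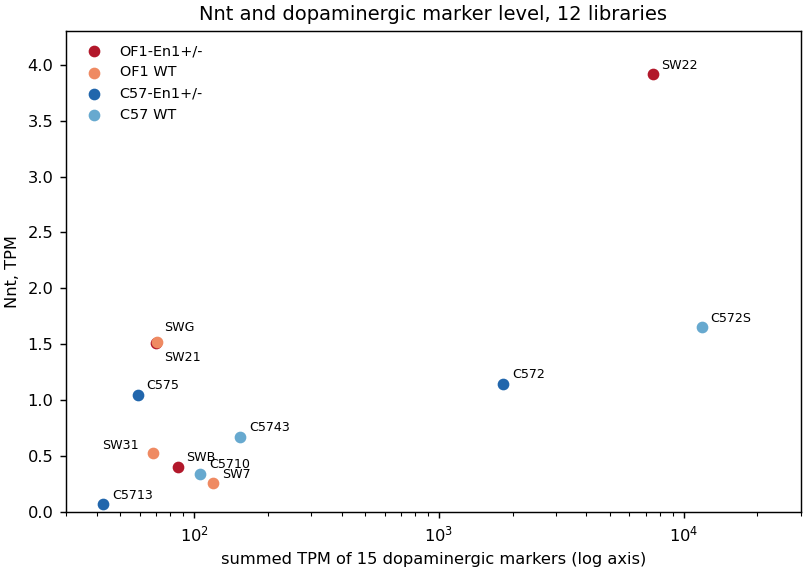
Nnt level in TPM (y axis, linear) against the summed TPM of 15 dopaminergic markers (x axis, log scale) in each of the 12 mice, coloured by group. SW22, C572 and C572S lie at 1827 to 11820 TPM of the markers, and the other 9 at 42.5 to 154 TPM, where Nnt ranged from 0.0689 to 1.52 TPM.

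The other 9 genes were compared to see whether further sources or users of mitochondrial NADPH differed between strains. None of the 10 genes passed the threshold between OF1 and C57 mice, against 2.00% of the 18017 genes tested (224 with a higher and 136 with a lower level in OF1 mice), and none had an unadjusted p under 0.05, against 8.68% of all genes. DESeq2 also called 0 of the 10 genes, against 3.62% of all. Within WT mice 0 of the 10 genes passed the threshold by edgeR (1.03% of all genes did), 0 had an unadjusted p under 0.05 (8.63% of all) and 0 passed by DESeq2 (2.53% of all). Within hemizygous mice the counts were again 0, 0 and 0, against 0.927, 8.00 and 2.46% of all genes. Normalized counts of the 6 OF1 and 6 C57 mice overlapped for all 10 genes, whereas they did not overlap for 2.39% of all genes. Within genotypes the counts without overlap were 1 of 10 (Nadk2) in WT and 0 of 10 in hemizygous mice, against 14.8 and 13.2% of all genes. The median log2 fold change was 0.05 over the 10 genes and -0.04 over all genes tested, with 6 estimates above 0 and 4 below. With SW22, C572S and C572 left out, 0 of the 10 genes passed the threshold, and 217 of all genes did.

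**Figure D4:**
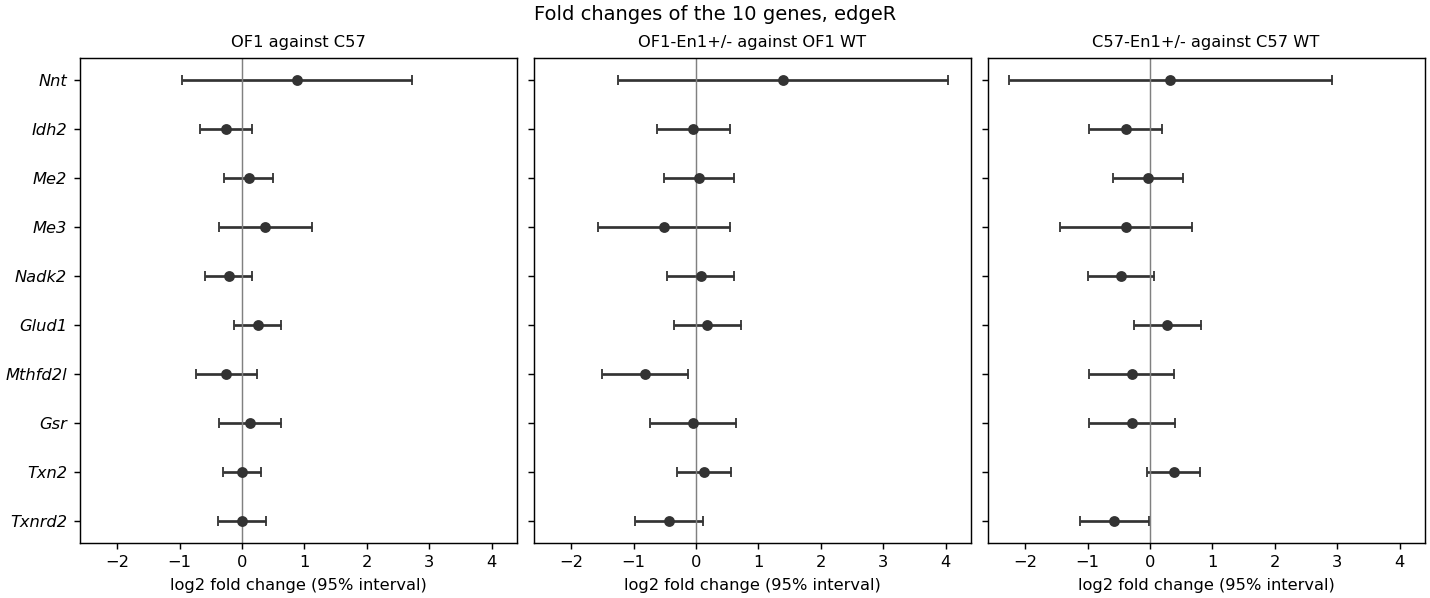
Log2 fold changes of the 10 genes with 95% intervals (x axis, edgeR) for OF1 over C57 mice, OF1-En1+/- over OF1 WT mice and C57-En1+/- over C57 WT mice, 1 gene per line. The interval of Nnt is the broadest in each panel, and the intervals that leave out 0 are those of Mthfd2l in OF1 mice and of Txnrd2 in C57 mice.

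Among the enzymes that reduce NADP in the matrix, Idh2, the NADP-dependent isocitrate dehydrogenase at chr7:79741431-79765535, had 19.3 to 35.1 TPM (median 28.6) in OF1 mice and 21.1 to 67.2 TPM (median 32.4) in C57 mice. C5710 alone lay above 35.1 TPM, and the log2 fold change was -0.25 (95% interval -0.67 to 0.16). Me3, the NADP-dependent mitochondrial malic enzyme, which oxidizes malate to pyruvate, was the highest of these enzymes by the mean level of the gene total in both strains. Most of that total was Me3-201, with no coding sequence defined (mean 35.9 TPM), and the retained-intron transcript Me3-203 (19.9 TPM), whereas the coding Me3-202 averaged 4.39 TPM, against 51.1 TPM for the coding Glud1-201 and 26.3 TPM for Idh2-201. In total, Me3 had 77.1, 59.4 and 46.8 TPM in OF1-En1+/- mice and 112, 45.7 and 79.8 TPM in OF1 WT mice. It had 72.6, 14.6 and 55.1 TPM in C57-En1+/- mice and 54.5, 84.6 and 73.0 TPM in C57 WT mice. The low value was that of C572, the strains overlapped, and the log2 fold change was 0.38 (-0.37 to 1.12). Me2, the malic enzyme that prefers NAD, on chromosome 18, had 8.66 to 20.6 TPM in OF1 mice and 10.2 to 17.0 TPM in C57 mice, with a log2 fold change of 0.11 (-0.29 to 0.50).

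Glud1, which deaminates glutamate and can use either cofactor, had 37.7 to 73.7 TPM (median 56.9) in OF1 mice and 37.6 to 56.8 TPM (median 46.4) in C57 mice. Its log2 fold change of 0.25 (-0.13 to 0.63, edgeR adjusted p = 0.849) had the smallest p of the 10 genes between strains. Mthfd2l, a methylenetetrahydrofolate dehydrogenase of the mitochondrial folate cycle, had 4.37 to 13.7 TPM in OF1 mice and 7.74 to 15.9 TPM in C57 mice, with a log2 fold change of -0.25 (-0.73 to 0.24). Nadk2, which phosphorylates NAD to NADP inside mitochondria, had 5.75 to 11.1 TPM in OF1 mice and 5.50 to 16.6 TPM in C57 mice, and its log2 fold change was -0.22 (-0.59 to 0.16). Its normalized counts were 658, 530 (529.6) and 609 in OF1 WT mice, against 807, 1035 and 676 in C57 WT mice. These 2 groups did not overlap, and the fitted log2 fold change was -0.49 (-1.02 to 0.05, edgeR adjusted p = 0.633). The order did not hold in hemizygous mice, where Nadk2 had 618, 635 and 637 normalized counts in OF1-En1+/- mice and 518, 788 and 512 in C57-En1+/- mice. In TPM the hemizygous groups lay apart the other way, at 9.33 to 11.1 TPM in OF1-En1+/- mice and 5.50 to 8.82 TPM in C57-En1+/- mice. The fitted log2 fold change in hemizygous mice was 0.06 (-0.48 to 0.59).

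The 3 genes of NADPH use, Gsr, Txnrd2 and Txn2 (which receives the electrons through Txnrd2), were compared next. Txn2, mitochondrial thioredoxin, was the highest of the 10 genes, with 166 to 213 TPM in OF1 mice and 176 to 231 TPM in C57 mice. Its log2 fold change was -0.00 (-0.31 to 0.30), which bounds a strain difference to a fold of 0.808 to 1.23. Txnrd2, the reductase that passes electrons of NADPH to Txn2, had 21.2 to 34.5 TPM in OF1 mice and 12.7 to 38.8 TPM in C57 mice, with 0.00 (-0.39 to 0.39). Gsr, glutathione reductase, whose gene serves both cytosol and mitochondria, had 8.04 to 26.8 TPM in OF1 mice and 11.3 to 22.5 TPM in C57 mice, with 0.13 (-0.36 to 0.62). The signs of the Txn2 and Txnrd2 estimates turned with the scaling or with single libraries left out, so neither has a direction. Among the 10 genes, 4 overlap a protein-coding gene on the opposite strand (Nnt with Paip1, Idh2 with Zfp710 and Glud1 with Shld2 among them), and the library kit does not keep the strand, so part of their reads may belong to that partner.

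Order by mean level was Txn2, Me3, Glud1, Idh2, Txnrd2, Gsr, Me2, Nadk2, Mthfd2l and Nnt, the same in OF1 and in C57 mice. Over all 12 mice, the ranges of Txn2 (166 to 231 TPM) and of Nnt (0.0689 to 3.92 TPM) were apart from every other gene, whereas each remaining neighbour pair in the order overlapped. The order is of gene totals, and the total of Me3 was mostly Me3-201 and Me3-203, which are not annotated as coding.

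Isoforms of the other genes were compared in the same way. Of 68 transcripts of the 10 genes in the files, 30 had enough reads to be tested for their level. None of them passed the threshold between strains by edgeR, and 3 had an unadjusted p under 0.05, against 7.55% of all transcripts. For use relative to the other transcripts of the gene, 28 transcripts of 8 genes were tested, of which 0 passed the threshold by diffSpliceDGE of edgeR (0.672% of all transcripts tested did) and 4 had an unadjusted p under 0.05 (5.34% of all). The shares of 3 of the 28 did not overlap between OF1 and C57 mice, against 1.41% of all, and all 3 were transcripts of Me3. No further tool was run on transcripts.

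Me3 lies at chr7:89278399-89503615 on the plus strand. Me3-202 (4485 bases, 14 exons) is its coding transcript, and Me3-206 (693 bases, 5 exons, with no coding sequence defined) shares exon 6 of Me3-202 as its exon 4 but then ends in an exon of its own, at chr7:89467829-89468139, which lies within intron 6 of Me3-202 (26946 bases). The junctions are shown because they mark where the transcripts part, with the last 30 bases of the shared exon in lower case and the first 30 bases of the next exon in capitals, from GRCm39.
Me3-206 junction of exons 4 and 5: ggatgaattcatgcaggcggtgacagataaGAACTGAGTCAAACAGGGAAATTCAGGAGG
Me3-202 junction of exons 6 and 7: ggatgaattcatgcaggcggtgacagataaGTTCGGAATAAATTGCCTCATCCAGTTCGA
Me3-206 was at 0, 0 and 1.64 TPM in OF1-En1+/- mice (SW21, SW22, SWB) and at 0, 0 and 0.841 TPM in OF1 WT mice (SW31, SW7, SWG). It was at 10.2, 1.77 and 8.04 TPM in C57-En1+/- mice (C5713, C572, C575) and at 6.98, 7.05 and 5.91 TPM in C57 WT mice (C5710, C572S, C5743). Every C57 mouse lay above every OF1 mouse, C572 included. As a share of Me3 TPM it was 0 to 3.50% in OF1 mice and 8.09 to 14.6% in C57 mice, with means of 0.759% ± 1.41 and 11.7% ± 2.82 (SD, n = 6 each).

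In reads, Me3-206 summed to 24.4 in the 6 OF1 libraries and 764 in the 6 C57 libraries. Its level had a log2 fold change of -3.86 (SE 1.28, 95% interval -6.70 to -1.03, edgeR adjusted p = 0.391). Its use relative to the other Me3 transcripts had a log2 difference of -4.23 (diffSpliceDGE adjusted p = 0.0741), just outside the threshold. Both the estimates and the call moved with single libraries. With single mice left out, the level ran between -6.92 and -3.57 and the use between -7.34 (without SWB) and -3.81, with -6.84 without SWG. The adjusted p was 0.0277 without SWG and 0.0177 without SWB, the 2 OF1 mice with reads of Me3-206, 0.0851 without C572 and 0.255 without SW22, C572S and C572. The separation of the shares was the reason for singling out this transcript, and it was chosen after its values were seen. The index holds the C57BL/6J sequence. Whether OF1 sequence variants or the assignment of shared reads lowered the estimates of Me3-206 in OF1 mice was not tested.

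**Figure D5:**
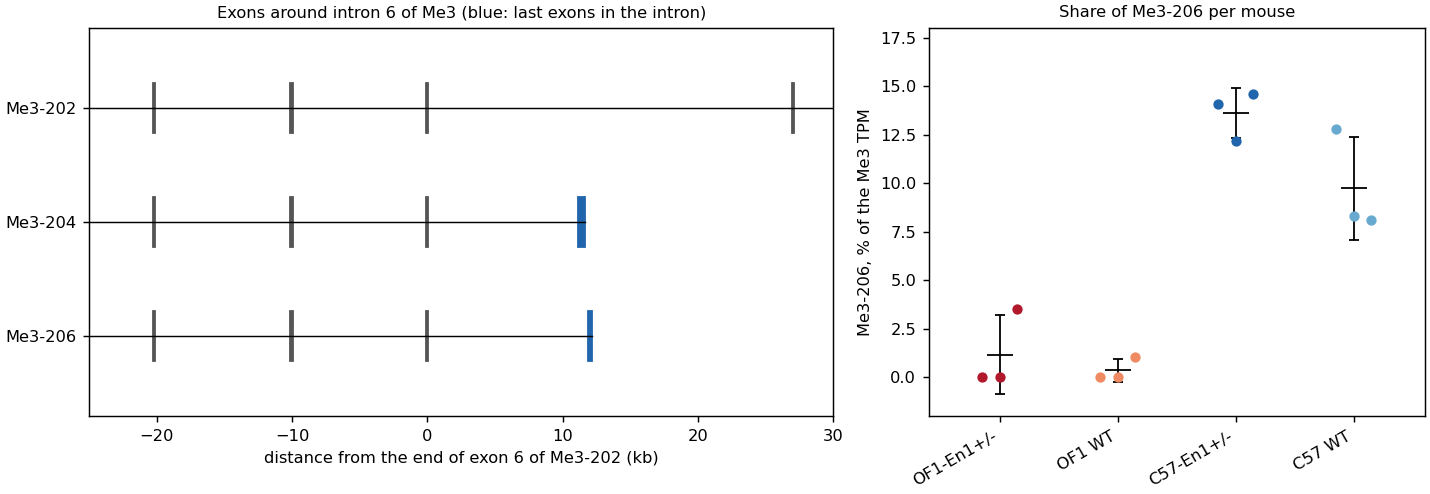
Left, exons (boxes) of Me3-202, Me3-204 and Me3-206 around the end of exon 6 of Me3-202 (x axis, distance in kb). Right, Me3-206 as a percentage of Me3 TPM (y axis, linear) in the 3 mice of each group, with mean ± SD. The OF1 mice lie at 0 to 3.50% and the C57 mice at 8.09 to 14.6%.

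Me3-204 (3463 bases), annotated as a target of nonsense-mediated decay, ends in another exon of the same intron, at chr7:89467094-89467641. It had 1.02 and 2.07 reads in SW22 and SW31 and 0 in the other 4 OF1 mice, against 3.09 to 70.0 reads in the 6 C57 mice. Its shares, 0 to 0.0541% in OF1 mice and 0.0569 to 1.12% in C57 mice, did not overlap but nearly touched, and it did not pass the threshold (use relative to the gene, diffSpliceDGE adjusted p = 0.154). Me3-201 (1130 bases, 9 exons), which begins within intron 6 and holds the largest share of the gene's TPM, had 57.6 to 66.6% in OF1 mice and 47.1 to 55.7% in C57 mice. Shares of 1 gene sum to the whole, so these 3 are not independent, and the fitted relative use of Me3-201 was 0.09 on the log2 scale (adjusted p = 1.00). Me3-202 itself had 3.82 to 10.1% of Me3 TPM in OF1 mice and 3.77 to 7.79% in C57 mice, with a log2 fold change in level of 0.65 (-0.54 to 1.84).

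Hemizygosity of En1 was compared with WT in each strain. With edgeR, 0 of the 10 genes passed the threshold in either strain, as did 0.00% of all genes. Unadjusted p under 0.05 were found for 1 of the 10 genes in each strain, against 9.18% of all genes in OF1 mice and 8.57% in C57 mice. DESeq2 called 0 of the 10 genes as well, against 1.12% of all genes in OF1 mice and 0.411% in C57 mice. The interaction of genotype and strain gave 0 of 10 genes by edgeR (0 with an unadjusted p under 0.05, against 7.07% of all) and 0 of 10 by DESeq2 (0.233% of all).

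The gene in OF1 mice was Mthfd2l, with 8.62, 4.37 and 7.01 TPM in OF1-En1+/- mice and 13.7, 9.37 and 10.1 TPM in OF1 WT mice. All 3 hemizygous mice lay below all 3 WT mice, and the log2 fold change was -0.81 (SE 0.32, 95% interval -1.50 to -0.12, edgeR adjusted p = 0.503). The lowest value was that of SW22, and with single mice left out the estimate ran between -1.12 and -0.53. In C57 mice the level was 9.50, 7.74 and 7.83 TPM with En1+/- and 15.9, 10.8 and 10.7 TPM in WT mice, again with no overlap in TPM but with overlap in normalized counts, and the log2 fold change was -0.29 (-0.97 to 0.39). The difference between the 2 effects, C57 minus OF1, was 0.52 (-0.45 to 1.49).

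The gene in C57 mice was Txnrd2, with 16.9, 12.7 and 33.3 TPM in C57-En1+/- mice and 38.8, 34.3 and 30.9 TPM in C57 WT mice. C575 lay within the WT range, and the log2 fold change was -0.57 (SE 0.25, 95% interval -1.12 to -0.02, edgeR adjusted p = 0.570). The lowest value was that of C572, and with single mice left out the estimate ran between -0.94 and -0.39. In OF1 mice Txnrd2 had 21.2, 27.0 and 24.8 TPM with En1+/- and 34.5, 27.0 and 24.1 TPM in WT mice, with a log2 fold change of -0.43 (-0.98 to 0.12). By normalized counts, the hemizygous mice did not overlap with their WT mice for Mthfd2l and Txnrd2 in the OF1 strain and for Gsr in the C57 strain. That was 2 and 1 of the 10, against 15.7 and 14.3% of all those tested. Gsr had 14.1, 11.3 and 15.6 TPM in C57-En1+/- mice and 22.5, 17.6 and 19.4 TPM in C57 WT mice, with a log2 fold change of -0.29 (-0.98 to 0.40).

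Other genes of the pathway, taken from 3 lists, were also compared between strains. Of 19 further genes of NADPH and NADP pathways, mostly the pentose phosphate and folate pathways, 19 were tested. Not every enzyme among them forms or uses NADPH itself. By edgeR, 0 passed the threshold and 1 had an unadjusted p under 0.05, against 2.00 and 8.68% of all genes. Their estimates were above 0 for 5 and below 0 for 14, with a median of -0.17, against -0.04 over all genes. The 1 gene was H6pd, which starts the pentose phosphate pathway in the endoplasmic reticulum, with 0.944 ± 0.270 TPM in OF1 mice and 1.71 ± 0.457 TPM in C57 mice (SD, n = 6 each) and a log2 fold change of -0.83 (edgeR adjusted p = 0.382). The most abundant were transaldolase, Taldo1, with 218 ± 20.04 TPM in OF1 mice and 215 ± 33.0 TPM in C57 mice (log2 0.02, with a sign that turned with single libraries left out), and transketolase, Tkt, with 184 ± 22.8 and 208 ± 26.6 TPM in OF1 and C57 mice (log2 -0.19).

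Of 19 enzymes that spend mitochondrial NADPH on peroxides and thiols or act beside them, 18 were tested, and 0 passed the threshold between strains by edgeR, with 0 at an unadjusted p under 0.05. Their median log2 fold change was 0.07. Peroxiredoxin 5, Prdx5, had 947 ± 156 TPM in OF1 mice and 794 ± 111 TPM in C57 mice (log2 0.26, 95% interval -0.06 to 0.59), and the lipid peroxidase Gpx4 had 837 ± 114 and 721 ± 82.3 TPM in OF1 and C57 mice (log2 0.19, -0.14 to 0.51). Between C57-En1+/- and C57 WT mice, 0 of the 18 passed the threshold, but 7 had an unadjusted p under 0.05, all with higher estimates in C57-En1+/- mice, against 0.00% called and 8.57% at an unadjusted p under 0.05 over all genes. The median was 0.32, against -0.05 over all genes. In OF1 mice the same median, hemizygous over WT, was -0.00, and 0 had an unadjusted p under 0.05. For the difference between the 2 effects, C57 minus OF1, 0 of the 18 passed the threshold. Of these, 2 had an unadjusted p under 0.05 (7.07% of all genes), with a median of 0.36. In OF1 WT over C57 WT mice, 2 of the 18 had an unadjusted p under 0.05, with higher estimates in OF1 WT (8.63% of all genes). The median there was 0.18. Summed oligodendrocyte markers were at 3286 TPM in C572 and at 437 and 260.3 TPM in the other 2 C57-En1+/- mice, against 293 to 779 TPM in C57 WT mice. Summed endothelial markers were at 157 to 224 TPM in C57-En1+/- mice, against 108 to 174 TPM in C57 WT mice. Summed dopaminergic markers spread more, at 42.5 to 1827 TPM in C57-En1+/- mice and 106 to 11820 TPM in C57 WT mice. In the same order, microglial markers were at 184 to 301 and 219 to 235 TPM. Astrocyte markers were at 897 to 1923 and 887 to 1302 TPM, and mural and fibroblast markers at 33.4 to 71.5 and 22.9 to 63.2 TPM. The part of these cells in the list's values was not tested. Nor was this list read without C572, so the part of that mouse in the count of 7 was not tested either. Of 12 genes of mitochondrial NAD supply and NAD-linked dehydrogenases, 12 were tested and 0 passed the threshold between strains by edgeR (none had an unadjusted p under 0.05), and their median was 0.10. Malate dehydrogenase 2, Mdh2, had 1319 ± 230.3 TPM in OF1 mice and 1175 ± 213 TPM in C57 mice (log2 0.17), and Idh3a, of the NAD-linked isocitrate dehydrogenase, had 490.3 ± 137 and 416 ± 24.7 TPM in OF1 and C57 mice (log2 0.20). DESeq2 was not read for these lists.

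Genes beside Nnt on chromosome 13 did not pass the threshold either. On the side of lower coordinates, the log2 fold changes of OF1 over C57 mice were 0.45 for Mrps30, a mitochondrial ribosomal protein (95% interval 0.04 to 0.85, edgeR adjusted p = 0.480), and -1.56 for Fgf10, a growth factor (-3.50 to 0.38, adjusted p = 0.737). On the other side they were -0.21 for Paip1, which overlaps Nnt by 1498 bases on the opposite strand, 0.15 for 4833420G17Rik and -0.44 for Tmem267 (-1.003 to 0.13, adjusted p = 0.765). Fgf10 had 1.71 ± 2.05 TPM in OF1 mice and 3.74 ± 1.35 TPM in C57 mice, so the genes around Nnt had no common direction. The sign of Paip1 turned with 1 mouse left out.

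As a description, the 5 protein-coding genes whose log2 CPM followed Nnt most closely over the 12 libraries were Cyp2j6 (Pearson r 0.893), Gpr34 (0.891), Nostrin (0.885), Gdpgp1 (0.884) and Ganab (0.881), picked as the highest of all tested. Within strains, their r was 0.815 to 0.996 in OF1 and 0.816 to 0.943 in C57 libraries. These are the libraries by which the genes were picked, so the values are no separate test. Depth and summed dopaminergic markers differed between the libraries, and their part in these correlations was not tested. Nnt itself rested on few reads. Across the other 9 members, r with Nnt ran between -0.50 (Mthfd2l) and 0.30 (Me2).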

How the data were processed

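The data were RNA-seq of laser-microdissected SNpc from 12 mice. The authors assigned reads to transcripts of GRCm39 with Salmon and deposited, per library and transcript, the estimated count of reads and the TPM, which is scaled to transcript length and depth. Of 140790 transcripts, 139555 (99.1%) had their identifier in the GENCODE annotation used here, which is a later release of the same build. Estimated counts were summed per gene, rounded, and tested with edgeR 4.0.16 in R 4.3.3 (TMM factors, robust quasi-likelihood, 1 mean per group over 12 libraries, mean normalized count of at least 10), with Benjamini-Hochberg adjustment over all genes or transcripts tested and a threshold of 0.05. Isoform use was tested with diffSpliceDGE, and the share of Nnt-202 with an exact permutation test over 924 splits. Alternatives were DESeq2 1.42.0 (the test named in the study), limma 3.58.1 on log2(TPM + 1) or log2(TPM + 0.1), other scalings and filters, and libraries left out. The code was tested on simulated data. Beside the 10 genes, the text names the 2 most abundant genes of each list, the 3 nearest tested protein-coding genes on each side of Nnt (1 of these is not reported here) and the 5 genes closest to it by correlation. H6pd and the Me3 transcripts fall outside this rule and were chosen after their values were seen. The members and lists were chosen with earlier results of these data known. Figures were made with Python 3.11.15 and matplotlib 3.10.9.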

Additional observations from a re-analysis of the deposited data

Results flagged for a closer look

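In 5 of 20 sets of 6 mice (each of the 10 genes in each strain), 1 mouse lay apart from the other 5 by Dixon's test of the gap, where chance gives about 1. Nnt was 3.92 TPM in SW22, against 0.254 to 1.52 TPM in the other OF1 mice. Nadk2 was 5.75 TPM in SW7, against 9.33 to 11.1 TPM in the other OF1 mice. C5710 stood above the other C57 mice in Idh2, with 67.2 TPM against 21.1 to 33.5 TPM, and in Mthfd2l, with 15.9 TPM against 7.74 to 10.8 TPM. Txn2 was 231 TPM in C572, against 176 to 192 TPM in the other C57 mice.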

How the results depend on the processing

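No paired analysis was possible because the labels give no replicate numbers shared between groups. In the 6 comparisons, 0 of the 10 genes passed the threshold under every alternative run, with adjusted p of at least 0.221. Counts over all genes moved by more than 1.5 times. For OF1 over C57 mice (360), WT mice (185), En1+/- mice (167), both effects of En1 (0 and 0) and the interaction (0), DESeq2 called 653, 456, 444, 202, 74 and 42. Without SW22, C572S and C572, 217, 108 and 87 were called in the first 3 and 2 for En1 in OF1 mice. Without SW22 and C572S, 107 were called in WT mice, 108 in En1+/- mice and 1 for En1 in OF1 mice, and with only the groups compared 123 and 108 in WT and En1+/- mice. With single mice left out, 111 to 175 were called in En1+/- mice and 0 to 3 for En1 in OF1 mice. The cause was not tested.

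Nnt between strains ran between 0.00 and 1.34. Its sign turned in OF1 WT over C57 WT mice with length offsets (-0.053), log2(TPM + 1) (-0.10) and log2(TPM + 0.1) (-0.25), and with single mice left out (-1.40 to 1.18). It turned in C57-En1+/- over C57 WT mice with the same TPM scales (-0.11 and -0.44) and without C572 (-0.58, range with single mice left out -0.58 to 1.20), and in the interaction without SW22 and C572S (0.77). Txn2 turned to 0.026 with DESeq2 and with relative log expression factors, 0.0036 without SW22 and C572S, 0.10 without C572 and 0.11 without all 3. Txnrd2 turned to -0.013 with length offsets, -0.077 without C572 and -0.069 without all 3. Taldo1 turned to -0.024 without SW22 and C572S. With single mice left out, signs also turned for Me2 (-0.028 to 0.20), Gsr (-0.027 to 0.28), Txn2 (-0.090 to 0.10), Txnrd2 (-0.077 to 0.18), Taldo1 (-0.059 to 0.14) and Paip1 (-0.34 to 0.067). Member transcripts called for isoform use ran between 0 and 1, the 1 being Me3-206 without SWG or SWB. The alternative without SW22, C572S and C572 was chosen after seeing the data. Nnt rested on 2 to 180 (179.8) reads per library, which limits how small a difference could be detected.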
